A study of Mus musculus with 12 samples.

Results

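Small leucine-rich proteoglycans are secreted matrix proteins with a curved core of leucine-rich repeats, most of which carry chondroitin, dermatan or keratan sulfate chains. They bind collagen fibrils and set their diameter and spacing, and several also hold growth factors such as TGFβ in the matrix. In bone, biglycan, decorin, osteoadherin and osteoglycin are among the best known non-collagenous proteins of the osteoid. The family was followed here in a count table of 56350 mouse genes, from which the rows named Lum, Dcn, Bgn, Fmod, Ogn, Omd, Aspn, Prelp, Kera and Epyc were taken. All 10 members were in the table, and 8 of them passed the filter on low counts (over 10 counts in 3 or more of the 12 libraries), which left 16484 genes to test.

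The libraries came from MPC2, a single clone of a conditionally immortalized mouse mesenchymal progenitor line, with 3 libraries in each of 4 conditions. Undifferentiated cells, called MSCs, were kept at 33 °C, and osteocytes were the same cells after 3 weeks in osteogenic media at 37 °C. Each cell type received vehicle (DMSO) or 50 µmol/L FG-4592 for 48 hours. FG-4592, or roxadustat, inhibits the prolyl hydroxylases that mark the hypoxia-inducible factors (HIFs) for degradation, so that these transcription factors are stabilized. Temperature, media and time in culture changed together with differentiation and cannot be told apart from it. The labels do not say whether the 3 libraries of a condition came from separate cultures, so p-values measure the spread between these libraries, which may be technical.

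Library totals ran from 52829185 to 68108470 counts, and levels are given in CPM, the usual scaling of a count by the total of its library. A count of 0 allows up to 3 counts, which lay between 0.0447 and 0.0545 CPM over the libraries. This floor covers counting error only. The HIF target Slc2a1, a glucose transporter, was at 13.1 to 23.5 CPM in the vehicle libraries and at 165 to 238 CPM in the FG-4592 libraries, and Vegfa, an angiogenic growth factor, was also higher in every FG-4592 library of either cell type. Of the osteocyte markers, Phex (50.6 to 63 CPM) and Dmp1 (9.12 to 13.7 CPM) were read in vehicle-treated osteocytes, whereas Sost was at 0 in all 12 libraries, Mepe was at 0 in all osteocyte libraries and Pdpn had 1 read in 1 osteocyte library. The 6 adipocyte markers summed to 675 to 894 CPM in MSCs and to 3400 to 4240 CPM in osteocytes, where Adipoq reached 1190 to 1730 CPM. In bulk RNA, fewer cells of a type and less RNA per cell cannot be told apart, and the part of adipocyte marker expression in the results was not tested.

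The family lies at 4 places in the genome (mm10, coordinates of the deposited table). Dcn, Lum, Kera and Epyc follow each other on chromosome 10 from 97479609 to 97682454, all on the plus strand. Aspn, Omd and Ogn lie on the plus strand of chromosome 13 from 49544443 to 49624501. Prelp (minus strand) and Fmod (plus strand) bound a stretch of chromosome 1 from 133910304 to 134048277, and Bgn lies on chromosome X from 73483602 to 73495933. Of the 10, 3 shared exonic bases with another gene: Aspn shared 7 with the antisense gene Cenpp, Prelp 350 with the antisense non-coding Gm15851, and Epyc 1041 with the antisense non-coding Gm10754. Reads were counted for each gene that they overlap and without strand, so such reads were counted for both genes. Gm15851 had at most 33 counts and Gm10754 at most 2 in any library, whereas Cenpp had 116 to 587.

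RefSeq promoter windows (GRCm38.p6, the assembly that mm10 names) were held for 8 of the 10 members, the others being Lum and Dcn. Sequences before the start site are shown for Ogn and Prelp, the members with the largest differences between the FG-4592 responses of the cell types, and for Bgn, the most abundant member. Each is the 250 bases before the start, 5′ to 3′ on the strand of the gene. Both strands were searched for ACGTG and GCGTG, the forms of the core that HIFs bind, and for TATAAA, and matches are in capitals.
Ogn, chr13:49607765-49608014, plus strand: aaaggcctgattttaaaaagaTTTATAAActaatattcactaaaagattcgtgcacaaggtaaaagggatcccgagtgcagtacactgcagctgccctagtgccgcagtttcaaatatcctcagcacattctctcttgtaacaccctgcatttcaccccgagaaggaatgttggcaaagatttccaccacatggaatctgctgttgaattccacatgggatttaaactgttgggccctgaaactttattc
Prelp, chr1:133921402-133921651, minus strand: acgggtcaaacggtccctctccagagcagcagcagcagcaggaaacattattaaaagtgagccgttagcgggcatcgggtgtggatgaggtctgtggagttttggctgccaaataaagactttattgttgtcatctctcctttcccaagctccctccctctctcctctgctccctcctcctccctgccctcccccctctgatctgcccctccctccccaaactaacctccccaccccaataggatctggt
Bgn, chrX:73483351-73483600, plus strand: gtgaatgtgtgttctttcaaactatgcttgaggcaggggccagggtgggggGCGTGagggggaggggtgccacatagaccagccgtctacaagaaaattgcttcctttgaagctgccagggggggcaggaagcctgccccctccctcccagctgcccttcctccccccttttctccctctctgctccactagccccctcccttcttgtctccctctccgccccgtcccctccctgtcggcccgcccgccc
The Ogn window held 2 overlapping TATAAA matches, 229 and 227 bases before the start, the Bgn window held 1 GCGTG match 199 bases before it, and the Prelp window held no match. Among all 32851 windows of that length, ACGTG was found in 16.6%, GCGTG in 28.2% and TATAAA in 12.4%. The windows of Bgn, Prelp and Ogn had 64.4%, 55.6% and 42% G or C, against a median of 52.4% over all windows. A match describes the letters alone, and its absence says nothing of the factor.

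Biglycan mRNA dominated the family in MSCs, and osteocytes had a broader mixture. Per kilobase of exon, Bgn (a carrier of chondroitin or dermatan sulfate that binds TGFβ and BMPs) was at 748 ± 9.99 CPM per kb (SD, n = 3) in vehicle-treated MSCs, ahead of Ogn at 132 ± 4.46, Prelp at 66.4 ± 3.59, Omd at 8.03 ± 0.775, Dcn at 1.49 ± 0.0507, Fmod at 0.303 ± 0.148 and Aspn at 0.0902 ± 0.0325. None of these neighbours in the order overlapped between their libraries. In vehicle-treated osteocytes the order was Bgn at 911 ± 41.1 CPM per kb, Ogn at 473 ± 60.7, Dcn at 176 ± 25.1, Prelp at 173 ± 11.9, Lum at 95.4 ± 23, Omd at 56.8 ± 10.7, Aspn at 3.56 ± 2.54 and Fmod at 1.52 ± 1.86. There the libraries of Dcn and Prelp overlapped, as did those of Aspn and Fmod, so that those neighbours were not separated beyond their spread. With FG-4592 the order in osteocytes was Bgn, Ogn, Prelp, Dcn, Omd, Lum, Aspn and Fmod with no overlap between neighbours, Prelp standing at 302 ± 4.98 and Lum at 40.7 ± 4.37 CPM per kb. The exonic lengths used were 6099 bases for Bgn and 5838 for Dcn, against 2249 to 3615 for the other members. Orders, shares and ratios between members depend on these lengths, and whether the mRNAs present were shorter was not tested. Comparisons of a member between conditions do not depend on them.

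**Figure D1:**
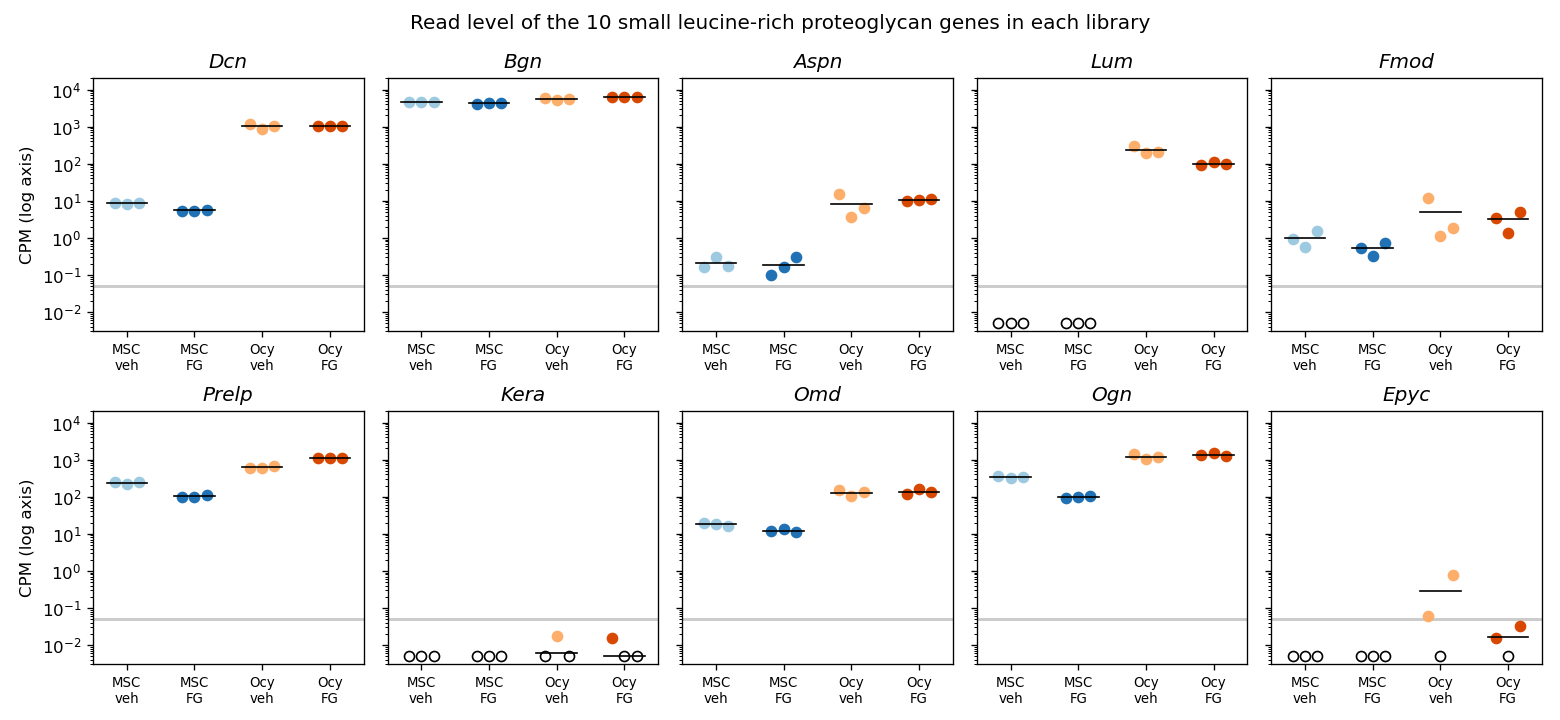
CPM on a log axis for each member in each of the 12 libraries, with the 4 conditions on the x axis (MSC and osteocyte, Ocy, with vehicle, veh, or FG-4592, FG); points are libraries, lines are means of 3 libraries, open points are libraries with 0 reads placed at the foot of the axis, and the grey band spans the floors of 3 counts (0.0447 to 0.0545 CPM). Bgn lies near the top in every condition, Lum has no reads in the 6 MSC libraries, and Kera lies under the band throughout.

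Bgn made up 78.2 ± 0.869% of the summed CPM per kb of the family in vehicle-treated MSCs and 48.3 ± 2.07% in vehicle-treated osteocytes. With FG-4592 its share was 90.5 ± 0.515% in MSCs and 48.5 ± 1.65% in osteocytes. In the order MSC vehicle, MSC FG-4592, osteocyte vehicle and osteocyte FG-4592, Ogn took 13.8%, 5.02%, 25% and 24.6%, and Prelp took 6.95%, 3.68%, 9.19% and 13.9%. Dcn went from 0.156% of the family in vehicle-treated MSCs to 9.28% in vehicle-treated osteocytes. The summed level of the 10 members, not corrected for length, was 5168 ± 39.3 CPM in MSCs with vehicle and 4469 ± 250 CPM with FG-4592, and in osteocytes it was 8796 ± 646 CPM with vehicle and 10160 ± 140 CPM with FG-4592. This came to 0.408 to 0.978% of all counts of a library. The libraries of any pair of conditions did not overlap, although 3 against 3 libraries cannot give an exact permutation p below 0.1, and no test was made of the sum.

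**Figure D2:**
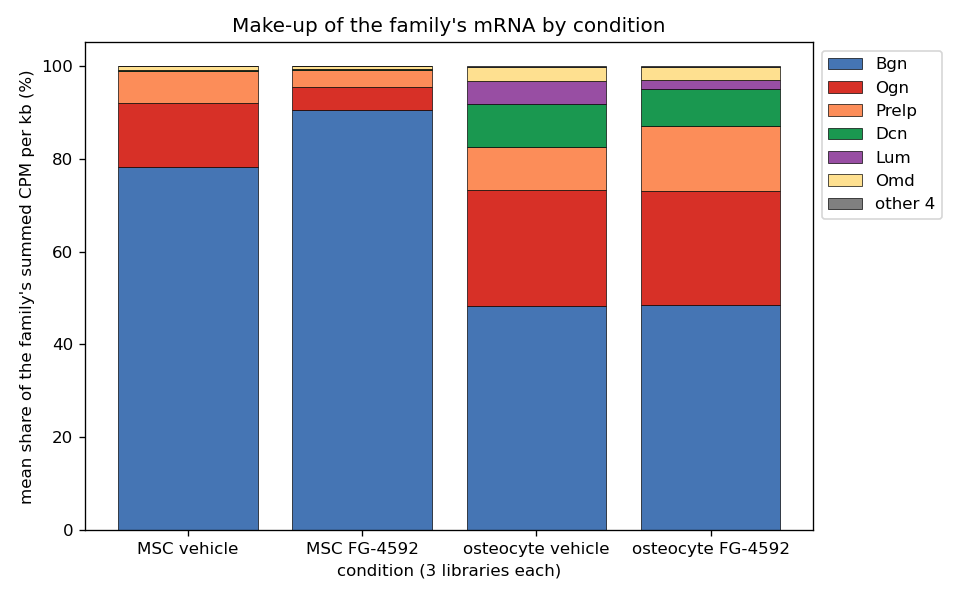
Mean share of the summed CPM per kb of the family (%, y axis) that each member took in the 4 conditions (x axis, 3 libraries each); the 4 least abundant members are drawn together as other 4. Bgn takes 78.2% (vehicle) and 90.5% (FG-4592) in the MSC bars but 48.3% and 48.5% in the osteocyte bars, where Dcn and Lum appear as visible shares.

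Kera and Epyc were not expressed by the filter on counts. Keratocan, a keratan sulfate proteoglycan of the cornea, had 1 read in 1 vehicle-treated and 1 read in 1 FG-4592-treated osteocyte library and none in the other 10. Epiphycan, a proteoglycan of growth plate cartilage, had no reads in MSCs, and in osteocytes it had 4, 0 and 48 reads with vehicle and 1, 0 and 2 reads with FG-4592. The 48 reads were 0.781 CPM in 1 library, and without that library no value of Epyc passed 0.0602 CPM. The 7 cartilage markers summed to 108 to 127 CPM over the vehicle-treated osteocyte libraries, nearly all of it Sox9 (46.2 to 54.8 CPM) and Col2a1 (52.6 to 72 CPM). The other markers of that list had means of 0.74 CPM or less there, and Acan had no reads. Lumican was off in one cell type only, with 0 reads in all 6 MSC libraries.

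In vehicle, 6 of the 7 members with reads in both cell types were higher in osteocytes than in MSCs and none was lower, at an absolute log2 fold change (log2FC) above 1 and an FDR under 0.05 in edgeR's quasi-likelihood test, with FDRs by Benjamini and Hochberg over all 16484 genes. None was lower at an unadjusted p under 0.05 or in DESeq2 either. Lum passed the filter through the 6 osteocyte libraries alone, so that it had to differ, and it is described by its levels with no test between the cell types. Of all genes tested, 9.83% were called higher and 6.08% lower. The median log2FC of the family was 2.32 over the 7 members with reads in both groups, beside -0.0064 over all genes. Of the class I members, Dcn, a collagen-binding proteoglycan that also binds TGFβ, was at 8.85, 8.35 and 8.88 CPM in vehicle-treated MSCs and at 1160, 873 and 1040 CPM in vehicle-treated osteocytes. These groups lay far apart, with a log2FC of 6.88 ± 0.0973 (SE, edgeR FDR = 5.71e-17), or 118-fold. Dcn mRNA was 0.189 to 0.206% of Bgn mRNA per kilobase in vehicle-treated MSCs and 17.3 to 21.1% in vehicle-treated osteocytes.

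Bgn itself was at 4490, 4610 and 4580 CPM in vehicle-treated MSCs and at 5770, 5280 and 5610 CPM in vehicle-treated osteocytes. The libraries did not overlap, but the log2FC of 0.284 ± 0.0447 (SE, edgeR FDR = 5.86e-05) stayed under the fold cutoff. Aspn, asporin, an aspartate-rich member that binds collagen and calcium, had 9, 18 and 11 reads in vehicle-treated MSCs and 1003, 204 and 390 reads in vehicle-treated osteocytes. Its log2FC was 5.29 ± 0.496 (SE, edgeR FDR = 1.98e-07) and ran from 4.58 to 5.68 over the alternatives run. The few reads in MSCs lie in a gene that overlaps Cenpp by 7 exonic bases, whose part in them was not tested.

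Of the class II members, Lum, which regulates fibril assembly in cornea and skin, was at 298, 194 and 209 CPM in vehicle-treated osteocytes against 0 reads in MSCs. It was at least 4290-fold higher in osteocytes, against the floor of 3 counts per library. Omd, osteoadherin, a keratan sulfate proteoglycan of mineralized tissue that binds hydroxyapatite, was at 19.7, 18.4 and 16.2 CPM in MSCs and at 149, 102 and 132 CPM in osteocytes. The log2FC of Omd was 2.82 ± 0.133 (SE, edgeR FDR = 4.01e-11), with every osteocyte library above every MSC library. Prelp, which anchors basement membranes to connective tissue, was at 249, 225 and 246 CPM in MSCs and at 613, 591 and 674 CPM in osteocytes, a log2FC of 1.38 ± 0.0636 (SE, edgeR FDR = 3.03e-11).

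Fmod, fibromodulin, which guides collagen cross-linking in tendon, was the least certain of the 6. It had 51, 33 and 97 reads in vehicle-treated MSCs and 804, 62 and 111 in vehicle-treated osteocytes, so that the groups overlapped. The log2FC of 2.32 ± 0.713 (SE, edgeR FDR = 0.0124) became 0.58 (edgeR FDR = 0.356) without osteocyte vehicle replicate 1 and 2.06 (edgeR FDR = 0.0509) without MSC vehicle replicate 2. Osteocyte vehicle replicate 1 also held the highest level of Aspn, 15.1 CPM beside 3.67 and 6.34 CPM. Of the class III members, Ogn, osteoglycin or mimecan, a collagen-binding member long known from bone, was at 351, 329 and 334 CPM in MSCs and at 1380, 1070 and 1180 CPM in osteocytes. Its log2FC was 1.85 ± 0.091 (SE, edgeR FDR = 7.13e-11) and no libraries overlapped.

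**Figure D3:**
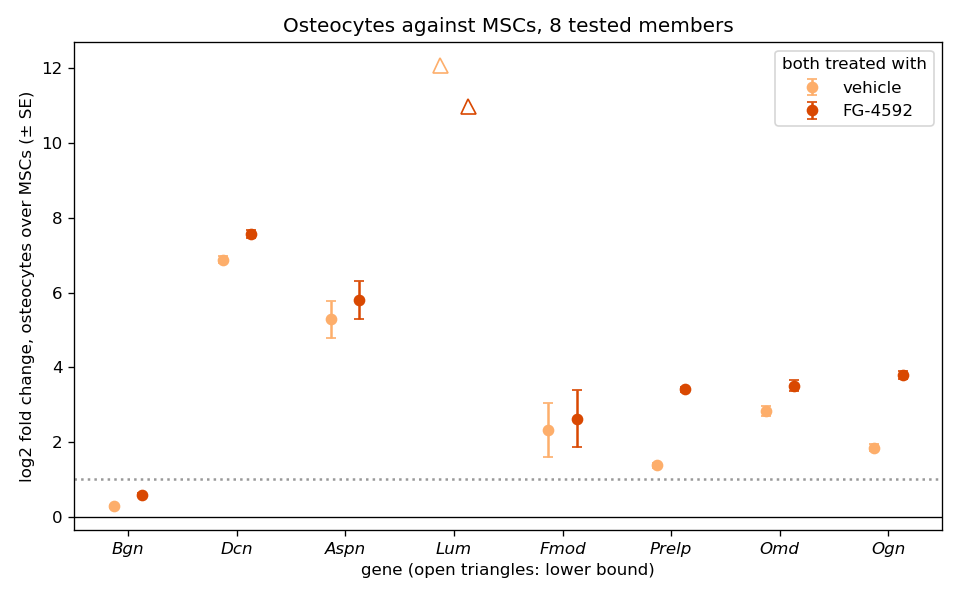
Log2FC of osteocytes over MSCs (y axis) for the 8 members that passed the filter (x axis), in vehicle and in FG-4592. Points are edgeR estimates with SE bars, and open triangles are the lower bounds for Lum, which had no reads in MSCs. The dotted line is the fold cutoff of 1. Bgn lies under the line at 0.284 and 0.595, and the other 7 lie above it.

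In FG-4592 the same 6 members with reads in both cell types were called higher in osteocytes than in MSCs and none was lower, where 12.6% of all genes were called higher and 5.64% lower. None was lower at an unadjusted p under 0.05 in edgeR or called lower in DESeq2. The comparison shares no library with the one in vehicle. The median log2FC was 3.51 over the 7 members with reads in both groups, beside 0.0316 over all genes. Ogn differed by a log2FC of 3.79 ± 0.0988 (SE, edgeR FDR = 2.06e-14) and Prelp by 3.41 ± 0.0687 (SE, edgeR FDR = 8.19e-16), against 1.85 and 1.38 in vehicle. Dcn differed by 7.56 ± 0.101, Omd by 3.51 ± 0.138, Aspn by 5.8 ± 0.5 and Fmod by 2.63 ± 0.758, Fmod without overlap between libraries here, and Lum was at least 1980-fold higher. Bgn had a log2FC of 0.595 ± 0.0448 (SE, edgeR FDR = 1.07e-08), under the fold cutoff.

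FG-4592 lowered Ogn and Prelp in MSCs. No member was called higher there by edgeR or DESeq2, and none was higher at an unadjusted p under 0.05. Of all genes tested, 4.12% were called higher and 5.17% lower in MSCs with FG-4592. The count of members is 2 lower of the 7 with reads in MSCs, with a median log2FC of -0.665 beside -0.045 over all genes. Ogn was at 351, 329 and 334 CPM with vehicle and at 91, 99.1 and 107 CPM with FG-4592. Every treated library lay below every vehicle library, with a log2FC of -1.77 ± 0.0914 (SE, edgeR FDR = 2.41e-10), a 3.41-fold lower level. Prelp was at 249, 225 and 246 CPM with vehicle and at 99, 96.3 and 112 CPM with FG-4592, also without overlap. Its log2FC was -1.23 ± 0.0638 (SE, edgeR FDR = 2.49e-10), a 2.35-fold lower level.

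The other members with reads in MSCs differed by less than the fold cutoff or had wide intervals. Dcn was at 8.85, 8.35 and 8.88 CPM with vehicle and at 5.44, 5.35 and 5.65 CPM with FG-4592, so the groups were apart, with a log2FC of -0.665 ± 0.0913 (SE, edgeR FDR = 2.25e-05), under the fold cutoff. Omd was at 16.2 to 19.7 CPM with vehicle and at 11.1 to 13.1 CPM with FG-4592, with a log2FC of -0.583 ± 0.135 (SE, edgeR FDR = 0.00258), again under the fold cutoff. For Bgn the log2FC was -0.102 ± 0.0447 (SE, edgeR FDR = 0.0844). Fmod (0.551 to 1.52 CPM with vehicle and 0.328 to 0.718 CPM with FG-4592) had a 95% interval of -2.61 to 0.751 on the log2 scale, and Aspn one of -1.72 to 1.38, so neither direction nor size was determined for these members. In all, 4 members had an FDR under 0.05 in MSCs, each lower with FG-4592, and 38.1% of all genes tested had such an FDR.

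In osteocytes, FG-4592 lowered Lum, and Prelp was higher by less than the fold cutoff, while the libraries of Dcn, Ogn and Omd overlapped between treatments. By the call rule 1 of the 8 tested members was lower and none was higher in edgeR or DESeq2, where 6.25% of all genes were called higher and 4.26% lower. With no fold cutoff, 3 members had an FDR under 0.05, Prelp and Bgn higher and Lum lower, beside 43.8% of all genes tested, and these were also the 3 with an unadjusted p under 0.05. The median log2FC of the members was 0.139 beside 0.0015 over all genes. Lum was at 298, 194 and 209 CPM with vehicle and at 90.6, 111 and 97 CPM with FG-4592. The groups did not overlap, with a log2FC of -1.23 ± 0.137 (SE, edgeR FDR = 1.26e-05), a 2.34-fold lower level. Per kilobase, Lum mRNA was 47.7 to 61% of Dcn mRNA with vehicle and 21 to 25.4% with FG-4592, the Dcn gene lying next to Lum on chromosome 10.

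Prelp was at 613, 591 and 674 CPM with vehicle and at 1080, 1080 and 1110 CPM with FG-4592 in osteocytes. No libraries overlapped, and the log2FC was 0.801 ± 0.0627 (SE, edgeR FDR = 2.97e-08), a 1.74-fold higher level that did not reach the fold cutoff. Bgn was at 5770, 5280 and 5610 CPM with vehicle and at 6370, 6390 and 6490 CPM with FG-4592, with a log2FC of 0.208 ± 0.0447 (SE, edgeR FDR = 0.00118), also under the cutoff. Dcn was at 1160, 873 and 1040 CPM with vehicle and at 1030, 1050 and 1020 CPM with FG-4592, and the 95% interval of its log2FC ran from -0.148 to 0.163. The 95% interval was -0.0119 to 0.362 for Ogn, -0.152 to 0.36 for Omd, -0.39 to 1.07 for Aspn and -2.02 to 0.765 for Fmod. Aspn was at 15.1, 3.67 and 6.34 CPM with vehicle and at 9.94, 10.5 and 11.4 CPM with FG-4592, and without osteocyte vehicle replicate 1 it was called higher, with a log2FC of 1.06 (edgeR FDR = 0.0022). Leaving out that same library turned Fmod from -0.628 to 1.14 (edgeR FDR = 0.0759).

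**Figure D4:**
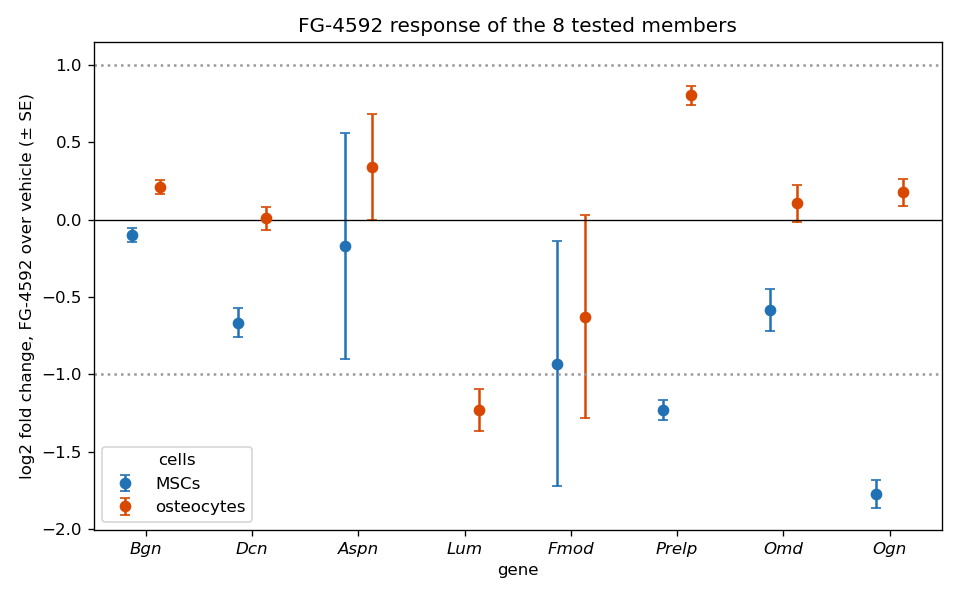
Log2FC of FG-4592 over vehicle (y axis) for the 8 tested members (x axis), in MSCs and in osteocytes; points are edgeR estimates with SE bars, and dotted lines mark the fold cutoff of 1. Prelp lies at -1.23 in MSCs and at 0.801 in osteocytes, Ogn at -1.77 and 0.175, and Lum, without reads in MSCs, has a value in osteocytes only.

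The response to FG-4592 was compared between osteocytes and MSCs by the difference of their log2FCs. Of all genes tested, 3.94% had a difference called higher in osteocytes and 1.07% one called lower. Of the 7 members with reads in both cell types, 2 were called, both with a higher log2FC in osteocytes, none had a lower one at an unadjusted p under 0.05 in edgeR or by call in DESeq2, and the median difference was 0.673 beside 0.048 over all genes. For Prelp the difference was 2.03 ± 0.0894 (SE, edgeR FDR = 3.52e-10), every treated MSC library lying below the vehicle libraries and every treated osteocyte library above them. For Ogn the difference was 1.94 ± 0.126 (SE, edgeR FDR = 2.71e-08), from the fall in MSCs and overlapping libraries in osteocytes. The differences of Dcn (0.673 ± 0.117, edgeR FDR = 0.000525), Omd (0.687 ± 0.181, edgeR FDR = 0.0108) and Bgn (0.31 ± 0.0632, edgeR FDR = 0.00186) had the same sign and lay under the fold cutoff. Those of Fmod and Aspn had 95% intervals of -1.87 to 2.47 and -1.21 to 2.23, and Fmod was called at 2.04 (edgeR FDR = 0.04) without osteocyte vehicle replicate 1. Lum could not be compared, as MSCs had no reads of it.

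Genes next to the family were read in the same fit. Ecm2, which encodes another leucine-rich repeat matrix protein and lies 11.7 kb before Aspn on chromosome 13, was at 5.94, 6.66 and 4.75 CPM in vehicle-treated MSCs and at 1.81, 1.65 and 1.69 CPM with FG-4592. In osteocytes it was at 28.8, 23 and 22 CPM with vehicle and at 41, 47.5 and 44.5 CPM with FG-4592. Its log2FC was -1.75 ± 0.145 (SE, edgeR FDR = 7.51e-08) in MSCs and 0.85 ± 0.114 (SE, edgeR FDR = 1.3e-05) in osteocytes, and the difference was 2.6 ± 0.184 (SE, edgeR FDR = 6.8e-08). Ecm2, before the chromosome 13 cluster, and Ogn, the last gene of it, thus had log2FCs of -1.75 and -1.77 in MSCs, with Omd at -0.583 and Aspn unresolved between them. Nol8, a nucleolar protein gene 28.6 kb after Ogn, had -0.0962 ± 0.0755 (SE, edgeR FDR = 0.352). Cenpp, a centromere protein gene on the minus strand that spans Aspn, Omd and Ogn, had a log2FC of -0.733 ± 0.179 (SE, edgeR FDR = 0.00382) with FG-4592 in MSCs and -0.389 ± 0.19 (SE, edgeR FDR = 0.113) in osteocytes. Between the cell types with vehicle it was called lower in osteocytes, at -1.33 ± 0.184 (SE, edgeR FDR = 1.58e-05), whereas the 3 members it spans were called higher.

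On chromosome 1, Optc, which encodes opticin and lies 2.3 kb from Prelp, stayed at 0.344 CPM or less in the mean of each condition. Btg2, an antiproliferative gene 26.9 kb after Fmod, had a log2FC of -1.2 ± 0.123 (SE, edgeR FDR = 8.95e-07) in MSCs, 0.254 ± 0.119 (SE, edgeR FDR = 0.0999) in osteocytes and a difference of 1.45 ± 0.171 (SE, edgeR FDR = 1.44e-05). The chromosome 10 cluster is flanked by Btg1 at 857 kb and by Ccer1 at 10.6 kb, and Bgn by Haus7 at 24.6 kb and Atp2b3 at 7.15 kb. Of these 4, none was called in either FG-4592 comparison or between the cell types in vehicle, and Ccer1 and Atp2b3 did not pass the filter.

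**Figure D5:**
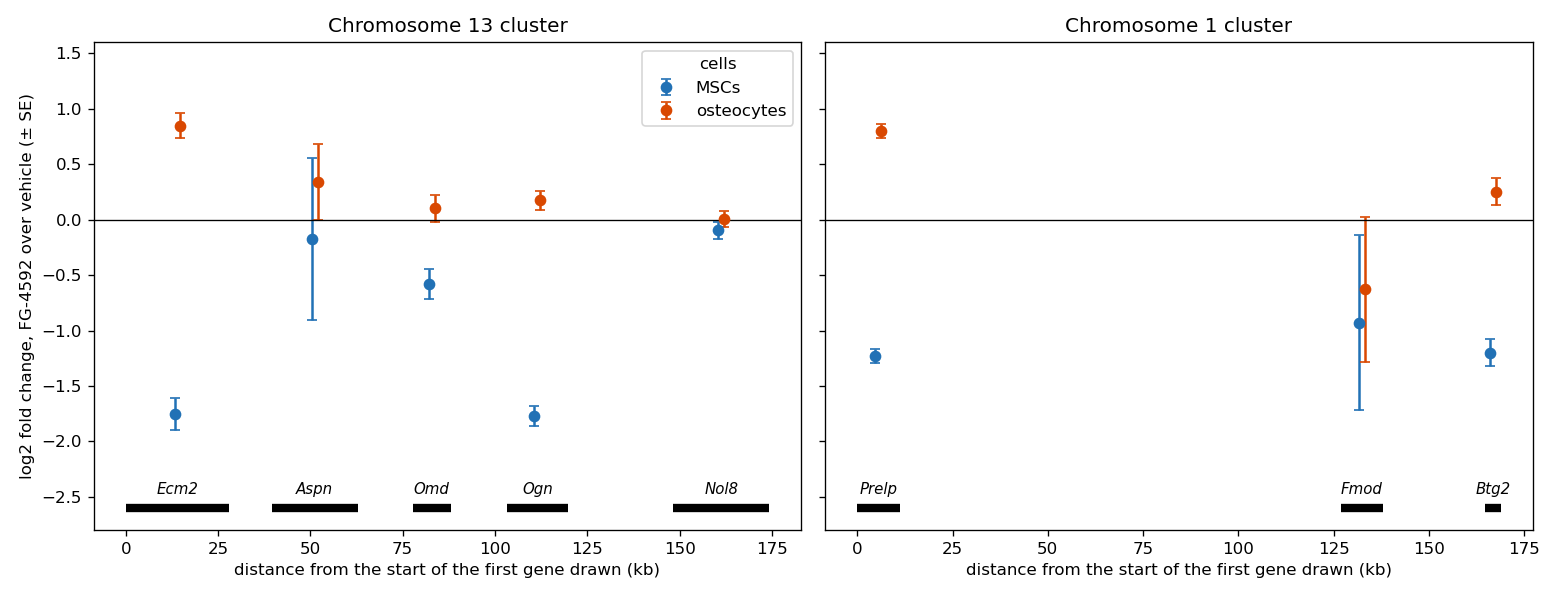
Log2FC of FG-4592 over vehicle (y axis, edgeR estimate with SE bars) in MSCs and osteocytes for tested genes in and next to the chromosome 13 cluster (left) and the chromosome 1 cluster (right), at their distance in kb from the start of the first gene drawn. Black bars are the gene bodies, and Cenpp and Optc are not drawn. Ecm2 and Ogn lie at -1.75 and -1.77 in MSCs, and Prelp lies at -1.23 in MSCs and 0.801 in osteocytes.

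The genes whose levels most resembled those of Bgn, Ogn and Prelp, the 3 members with the highest mean CPM per kb over all 12 libraries, were taken by the Pearson r of log2 CPM over the 12 libraries. For Bgn they were Mc2r (r = 0.9903), Ank (r = 0.984) and Vkorc1 (r = 0.9836). For Ogn they were Snx18 (r = 0.9957), Kng1 (r = 0.9954) and Fgfr2 (r = 0.9936), and for Prelp they were Abcd2 (r = 0.9963), Pygb (r = 0.9944) and Peg13 (r = 0.9939). Among the 7 members with reads in both cell types, r ran from 0.747 for Fmod with Bgn or Prelp to 0.994 for Omd with Dcn, and it was 0.979 for Ogn with Prelp. The r values of Lum, from 0.737 with Fmod to 0.995 with Dcn, rest on 0 reads in the 6 MSC libraries. The 12 points fall into 4 conditions and share their library scaling, so these r values describe mainly the differences between conditions.

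The glycosaminoglycan chains of the family are built by sets of shared transferases and sulfotransferases. Of 23 genes of linker and chondroitin or dermatan sulfate synthesis, all tested, 4 were higher and 2 were lower in osteocytes than in MSCs with vehicle, where 9.83% of all genes were called higher and 6.08% lower, with a median log2FC of -0.0858 beside -0.0064 over all genes. The lower genes were Csgalnact1, which starts the chain (log2FC -3.35 ± 0.126), and Xylt1, which adds the linker xylose, at the fold cutoff (37.3 CPM in MSCs and 18.6 CPM in osteocytes, at -0.998 to -0.91 and not called under 10 alternatives), and the higher ones with the largest values were the sulfotransferase genes Ust (1.91 ± 0.208), Chst15 (1.86 ± 0.0778) and Chst11 (1.58 ± 0.0628). With FG-4592, Ust was the only gene of the list called in MSCs (-1.48 ± 0.236), and in osteocytes Chst15 was higher (1.2 ± 0.0738) and Chsy3, a chain polymerase, lower (-1.3 ± 0.185). Each count of 1 in 23 lies near the share of all genes, 5.17% lower in MSCs and 6.25% higher and 4.26% lower in osteocytes. Of 10 keratan sulfate genes, 7 were tested, and FG-4592 lowered the sulfotransferase gene Chst2 in MSCs (-1.17 ± 0.0812) and raised B4galt1, a galactosyltransferase gene, in osteocytes (1.01 ± 0.0391, at 0.909 to 0.995 and not called under 9 alternatives). Only B4galt4 of this list was called between the cell types with vehicle (1.81 ± 0.105). For each of these comparisons 1 of 7 genes was thus called, where 5.17% of all genes were called lower in MSCs, 6.25% higher in osteocytes and 9.83% higher between the cell types.

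Ugdh, which makes the UDP-glucuronate needed for chondroitin and heparan sulfate, was the gene called among the 12 of precursor and sulfate supply. It was higher with FG-4592 in MSCs (log2FC 1.52 ± 0.0594, edgeR FDR = 6.76e-12) and in osteocytes (1.93 ± 0.0603, edgeR FDR = 2.99e-13), at means of 219, 629, 123 and 470 CPM in the order of conditions used above. Of all genes, 4.12% were called higher in MSCs and 6.25% in osteocytes, so the count of 1 in 12 lies near those shares. The median log2FC of the list was 0.0857 in MSCs and 0.0325 in osteocytes. None of its genes was called by edgeR between the cell types with vehicle, beside 9.83% of all genes called higher and 6.08% lower, and the median was -0.0814.

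Of the 10 other leucine-rich repeat matrix proteins, 7 were tested. With FG-4592, 1 was called higher and 2 lower in MSCs, beside 4.12% and 5.17% of all genes, and 2 higher in osteocytes, beside 6.25%. Tsku, tsukushi, an extracellular modulator of several growth factors, was higher with FG-4592 in MSCs (log2FC 1.58 ± 0.0872) and in osteocytes (1.42 ± 0.0867). Ecm2 and Optc were the 2 called lower in MSCs. Optc went from a mean of 0.0945 CPM to under the floor, and it was not called under 3 alternatives that each left out a library. Podn, podocan, was higher with FG-4592 in osteocytes (1.02 ± 0.263, edgeR FDR = 0.00468), at 8.87 CPM with vehicle and 18 CPM with FG-4592, a call lost under 5 alternatives, where it was 0.842 to 1. Between the cell types with vehicle, Ecm2, Podn, Nyx and Chadl were called higher in osteocytes, where 9.83% of all genes were called higher. Podn and Nyx were under the floor in vehicle-treated MSCs, at means of 0.0445 and 0.0113 CPM. Their reads in MSCs were too few to pass the filter there, so it set their direction and their calls do not add to the count. The call of Chadl was lost under 11 alternatives and that of Nyx under 1.

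Among 16 fibrillar collagens and partners, all tested, 4 were higher and 1 was lower in osteocytes with vehicle, beside 9.83% and 6.08% of all genes. Col14a1, a fibril-associated collagen (log2FC 4.11 ± 0.282), Tnc, tenascin C (4.09 ± 0.0872), and Eln, elastin, at 28.4 CPM from under the floor, were higher, and Tnxb was lower (-2.21 ± 0.167). The reads of Eln in vehicle-treated MSCs were too few to pass the filter there, so its call does not add to the count. FG-4592 lowered Tnc in MSCs (-2.01 ± 0.0818) and in osteocytes (-1.59 ± 0.0785). In osteocytes 3 genes were higher with FG-4592 and 3 lower, beside 6.25% and 4.26% of all genes, the largest being Eln (-3.11 ± 0.49, not called in DESeq2), Thbs1, thrombospondin 1 (2.03 ± 0.0579), Tnc and Fn1, fibronectin (1.3 ± 0.0567). Col1a1, the main collagen of bone, was at 2580 to 3020 CPM in MSCs and at 2460 to 3550 CPM in osteocytes.

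Of 18 growth factor and receptor partners, 16 were tested, with 7 higher and 1 lower in osteocytes with vehicle, beside 9.83% and 6.08% of all genes. The largest were P2rx7, a purinergic receptor gene (log2FC 2.83 ± 0.503), Igf1 (2.2 ± 0.0621), Bmp2 (1.68 ± 0.213) and Ccn2 (1.23 ± 0.0823). With FG-4592, Tgfb3 (-1.58 ± 0.0515) and P2rx7 (-2.84 ± 0.717, from 0.386 to 0.0521 CPM, near the floor) were lower in MSCs. In osteocytes Igf1r was higher (1.21 ± 0.0496) and Tlr2 lower (-1.07 ± 0.0813, and -0.981 without osteocyte FG-4592 replicate 1). Of a list of 14 genes, proteases reported to cleave the family and Pcolce, which enhances procollagen cleavage and is no protease itself, 11 were tested, with 5 higher and 1 lower in osteocytes with vehicle (the same shares of all genes apply), led by Mmp9 (5.17 ± 0.352), Mmp13 (5.1 ± 0.133), Tll1 (-4.28 ± 0.467) and Adamts5 (1.7 ± 0.0811). In osteocytes, FG-4592 raised Mmp13, a collagenase (1.71 ± 0.101), and lowered Mmp9 (-3.04 ± 0.296) and Htra1 (-1.08 ± 0.0729). In MSCs, Tll1 was higher (1.03 ± 0.341, a call lost under 5 alternatives) and Mmp9 lower, from 0.184 CPM to under the floor.

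For the difference of the responses, 3.94% of all genes were called higher in osteocytes and 1.07% lower. Of the 7 pathway lists, Ecm2, Optc, Thbs1 (1.53 ± 0.0793) and Mmp13 (2.3 ± 0.2) were higher in osteocytes and Eln was lower. Optc, under the floor in FG-4592-treated MSCs, was not called under 5 alternatives, nor was Eln without MSC FG-4592 replicate 2 (-1.29). No gene of the other 4 pathway lists was called. In FG-4592-treated cells, where 12.6% of all genes were called higher and 5.64% lower in osteocytes, those 7 lists had, in the order given, 4 of 23, 2 of 7, 0 of 12, 3 of 7, 4 of 16, 6 of 16 and 4 of 11 tested genes higher and 2, 0, 0, 0, 1, 0 and 1 lower. The 3 of 7 include genes with too few reads in MSCs to pass the filter there, so that it set their direction.

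Marker lists moved with the same comparisons, and their part in the results for the family was not tested. With vehicle, 5 of 6 adipocyte markers and 4 of 11 tested osteoblast and osteocyte markers were higher in osteocytes, and 3 of 6 cell cycle markers were lower, beside 9.83% of all genes higher and 6.08% lower. The summed cell cycle markers were at 722 to 740 CPM with vehicle and 460 to 550 CPM with FG-4592 in MSCs, and at 376 to 452 CPM with vehicle and 119 to 200 CPM with FG-4592 in osteocytes. With FG-4592, 4 of 11 osteoblast and osteocyte markers were lower in MSCs, and in osteocytes 5 were lower and 1 was higher. Of 10 HIF targets, 7 were higher in MSCs and all 10 in osteocytes. For some marker calls the filter set the direction, so they do not add to the counts. Adm (37, 16 and 49 reads) and Fgf23, the osteocyte marker called higher, passed it only through FG-4592-treated osteocytes. Car9 passed it through those and a vehicle-treated osteocyte library with 16 reads. Cidec, an adipocyte marker, passed only through osteocytes. Of all genes, 4.12% were called higher and 5.17% lower with FG-4592 in MSCs, and 6.25% higher and 4.26% lower in osteocytes. The summed cartilage markers were at 82.4 to 90.7 CPM with vehicle and 146 to 161 CPM with FG-4592 in MSCs, where 1 of 3 tested genes was called lower. In osteocytes they were at 108 to 127 CPM with vehicle and 365 to 444 CPM with FG-4592, with 2 of the 3 higher and 1 lower. Nearly all of these sums was Sox9, with Col2a1 beside it in osteocytes. Tendon and ligament markers summed to 8.17 to 20.5 CPM, and blood and vessel markers to 1.08 to 2.08 CPM over the 12 libraries.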

How the data were processed

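RNAseq was done on 12 libraries of MPC2 cells, and each library was put in its condition by its labelled cell type and treatment. The authors mapped read pairs of 100 bases to mm10 (STAR 2.7.2a) and counted uniquely mapped reads of mapping quality 10 or more on Gencode M22 genes with featureCounts (Subread 1.6.2), without strand and for every gene overlapped. The deposited values are raw counts per gene and library. The submitters' processing notes also name edgeR 3.24.3.

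Genes with over 10 counts in 3 or more libraries were fitted together in edgeR 4.0.16 (R 4.3.3) with TMM factors and 1 coefficient per condition, by the quasi-likelihood test. Levels are CPM of TMM-scaled totals, divided by the exonic length of the deposited table where genes are compared. Totals of 52829185 to 68108470 counts put the floor of 3 counts at 0.0447 to 0.0545 CPM. Exonic overlaps came from GenomicRanges 1.54.1, and promoter windows and figures from Python 3.11.15 and matplotlib 3.10.9.

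The members and lists were chosen with earlier results of these data known. Named are all members, the genes sharing exons with or lying next to them, Slc2a1 and Vegfa, the 3 genes most like each of the 3 members of highest mean CPM per kb, and up to 4 called genes of each pathway list per comparison with the largest log2FC. Col1a1, Xylt1 and the named markers were chosen after their values were seen. Each result was recomputed with DESeq2 1.42.0, the likelihood ratio test, RLE factors, unscaled totals, filterByExpr, all genes with a count, a fit on the compared libraries alone, the replicate number as a block, removal of genes sharing exonic bases, and each library left out. ATACseq was not analysed here.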

Additional observations from a re-analysis of the deposited data

Results flagged for a closer look

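The FG-4592 response differed between osteocytes and MSCs (FDR under 0.05 for the difference of the log2FCs in edgeR) for 5 of the 7 members that could be compared. The difference, osteocytes minus MSCs, was 2.03 for Prelp (edgeR FDR = 3.52e-10), 1.94 for Ogn (edgeR FDR = 2.71e-08), 0.687 for Omd (edgeR FDR = 0.0108), 0.673 for Dcn (edgeR FDR = 0.000525) and 0.31 for Bgn (edgeR FDR = 0.00186). An FDR under 0.05 for this difference was also found for 24.3% of all genes tested.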

How the results depend on the processing

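Of the alternatives to the counts of members called and to the summed levels, 221 stayed within 1.5 times the count or 1 SD of the level, and 7 did not. Without a filter on low counts, 2 members were lower with FG-4592 in osteocytes, the added one being Epyc (log2FC -3.95, edgeR FDR = 0.0192), which rests on 48 reads in 1 library. With each library left out in turn, 0 to 1 members were higher with FG-4592 in osteocytes, the 1 being Aspn without osteocyte vehicle replicate 1. The summed level was 5404 CPM in vehicle-treated MSCs and 9672 CPM in FG-4592-treated osteocytes with library size alone, and 5039 to 5106 CPM in vehicle-treated MSCs with each library left out.

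The calls of Ogn and Prelp in MSCs, of Lum in osteocytes, of Ogn and Prelp in the difference of the responses, and of Dcn, Aspn, Omd, Ogn and Prelp between the cell types held under every alternative run. The log2FC of Dcn with FG-4592 in osteocytes was -0.00631 in DESeq2 and with RLE factors, -0.0904 with library size alone and -0.0033 without genes sharing exonic bases, while the median over all genes moved by -0.014 with RLE factors and by -0.098 with library size alone, so that the scalings moved Dcn as they moved all genes. With each library left out it ran from -0.112 to 0.0901, that of Omd from -0.0514 to 0.214, that of Aspn from -0.0325 to 1.06 and that of Fmod from -1.11 to 1.14. In the same way the log2FC of Aspn ran from -0.66 to 0.188 in MSCs and the difference of the responses of Fmod from -0.211 to 2.04. For the changes not due to scaling, the cause was not tested.

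Samples of 1 replicate number did not deviate together (r from -0.135 to 0.0543 over 18 pairs, and a best match with the own number in 5 of 36 cases). No pairing by number was thus detected, which 3 libraries per condition cannot exclude. With the replicate block, the calls over all genes went from 1532 to 1444 in MSCs and from 1732 to 1678 in osteocytes, and the counts of members called, 2 lower in MSCs and 1 lower in osteocytes, were as without it.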
